A study of Homo sapiens with 6 samples.

Results

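The cytoplasmic ribosomal protein genes encode the proteins of the ribosomes that translate nuclear messages. They were taken here as the Ensembl rows of protein-coding genes whose symbol is RPL or RPS with a number and at most a suffix of A, X, Y1 or L, together with RPLP0, RPLP1, RPLP2, RPSA and FAU, and without pseudogenes or RPS6K kinases. This gave 83 genes of 58882 rows, 49 of the large subunit and 34 of the small subunit. The rows came from RNA sequencing of T24, a long-established human line grown from a bladder carcinoma, in 6 libraries. In the 3 Q63E libraries the cells stably carried a constitutively active mutant of RhoC, a small GTPase of the actin cytoskeleton, and in the 3 VEC libraries they carried the vector. Per the labels' protocols, both lines were made with lentivirus and selected with puromycin. The labels do not say whether a line was a pool or a clone, nor that the 3 libraries of a group were separate cultures, so a p-value below measures the spread between libraries alone, and this spread may be technical.

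A ribosome is built from a small subunit, which binds the message and reads its codons, and a large subunit, which joins the amino acids. Each ribosome needs about equal numbers of nearly all its proteins, and most of them come from single genes spread over many chromosomes. Their messages are among the most abundant of a growing cell. They are known as TOP messages because they start with a C followed by a run of pyrimidines (C or T), and through this start their translation follows the growth signal of the kinase complex mTORC1.

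The values are taken as FPKM, that is, reads scaled to the length of the transcript and to the size of the library, a unit inferred from the values. Summed FPKM per library ran from 726929 to 769026, and the depth in reads is unknown, so no counting intervals are given. RHOC itself had 1770.1, 1726 and 1744 FPKM in the Q63E libraries, against 232, 218 and 232 FPKM in the VEC libraries (log2 fold change 2.94, SE 0.036, adjusted p = 3.12e-07, limma), which goes with the labels. Of 18 epithelial and urothelial markers 7 had a mean of at least 1, led by KRT7, KRT8, KRT18 and KRT19, and their summed FPKM lay between 3378 and 3481 in Q63E and between 2134 and 2175 in VEC. CDH1, KRT13, KRT5 and UPK3A were listed at 0 in every library. Of 7 mesenchymal markers 6 had a mean of at least 1, TWIST1 was listed at 0, and their summed FPKM lay between 3419 and 3825 in Q63E and between 4192 and 4315 in VEC. Of these VIM averaged 2193 FPKM in Q63E and 3212 FPKM in VEC, and FN1 averaged 1364 FPKM in Q63E and 938 FPKM in VEC. Of the 9 leukocyte markers only CD68 had a mean of at least 1, PTPRC, CD3E and MS4A1 were listed at 0, and the summed FPKM lay between 9.97 and 11.4 in Q63E and between 18.7 and 20.04 in VEC. Of the 7 endothelial markers none reached a mean of 1, and of the 8 fibroblast markers only COL1A1 did. The part of these marker differences in the results below was not tested.

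A short look at the gene starts shows what the members share in sequence. RefSeq start sites on GRCh38.p14 were matched by symbol for 66 of the 83 genes, with 81 start sites in all. A pyrimidine start, a C at the first base followed by at least 4 further C or T, was present at 48 of the 81 sites (59.3%), each in a different gene, against 4.07% of the 35116 start sites of all genes. The run was between 5 and 19 bases long, with a median of 8. The windows below give 10 bases before the start and the first 20 bases of the transcript, 5′ to 3′, with the pyrimidine run in capitals. They were chosen to show genes higher in Q63E (RPSA, RPL14, RPL29, RPL12), genes lower in Q63E (RPL18, RPL34) and the longest run (RPL39). Also shown are a main gene beside its copy (RPS27, RPS27L) and a gene higher in Q63E without a pyrimidine start by this rule (RPS7).
RPSA: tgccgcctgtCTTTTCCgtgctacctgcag
RPL14: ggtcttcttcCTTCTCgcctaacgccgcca
RPL29: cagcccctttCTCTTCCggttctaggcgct
RPL12: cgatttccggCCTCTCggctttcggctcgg
RPL18: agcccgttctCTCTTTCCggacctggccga
RPL34: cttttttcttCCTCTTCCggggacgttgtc
RPL39: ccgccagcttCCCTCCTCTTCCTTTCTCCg
RPS27: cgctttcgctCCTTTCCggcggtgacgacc
RPS27L: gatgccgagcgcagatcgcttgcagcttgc
RPS7: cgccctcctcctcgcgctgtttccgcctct
These windows lie, in the same order, at chr3:39406710-39406739 (plus strand), chr3:40457329-40457358 (plus strand), chr3:51995876-51995905 (minus strand), chr9:127451387-127451416 (minus strand), chr19:48619159-48619188 (minus strand), chr4:108620566-108620595 (plus strand), chrX:119791611-119791640 (minus strand), chr1:153990752-153990781 (plus strand), chr15:63157458-63157487 (minus strand) and chr2:3575250-3575279 (plus strand). Both RPSA, called higher, and RPL18, called lower, have a pyrimidine run at the start. The part of the start sequence in the differences between the lines was not tested.

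In Q63E cells, 14 of the 80 ribosomal protein genes with a mean of at least 1 FPKM were higher than in VEC cells, 4 were lower and 62 were not called, at an adjusted p under 0.05 in limma. Among all 13346 genes tested, 11.3% were called higher, 14.0% lower and 25.3% in either direction. The members called higher made up 17.5% of those tested and the members called lower 5%. The differences were small: 70 of the 80 genes had a log2 fold change between −0.25 and 0.25, and the median was 0.095, against −0.0023 over all genes tested. This median was −0.0021 when the libraries were scaled to the median ribosomal protein gene, which sets it near 0 by construction, and it lay above 0 under every other scaling run. The largest rises were those of RPL15, RPSA, RPL32 and RPL14, at 1.34 to 1.40-fold, and the largest fall was that of RPL39L, a copy of RPL39, to 0.643 of its VEC level.

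The count of calls depends on single libraries and on the scaling. Without VEC replicate 1 it was 25 genes higher, and it was 7 or 8 without VEC replicate 2, VEC replicate 3, Q63E replicate 2 or Q63E replicate 3. With all libraries scaled to the same sum 26 genes were higher and 3 lower, and after quantile normalization 19 were higher and 10 lower. Both groups of libraries stood apart without overlap for 22 genes higher and 9 genes lower in Q63E, and 49 genes overlapped. Over all genes tested the groups did not overlap for 43.9%, with 21.1% higher and 22.8% lower. RPL10L, RPL3L and RPS4Y1, copies known from testis, muscle and the Y chromosome, had a mean under 1 and were not tested. In bulk RNA, fewer cells with a message and less of it per cell cannot be told apart.

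**Figure D1:**
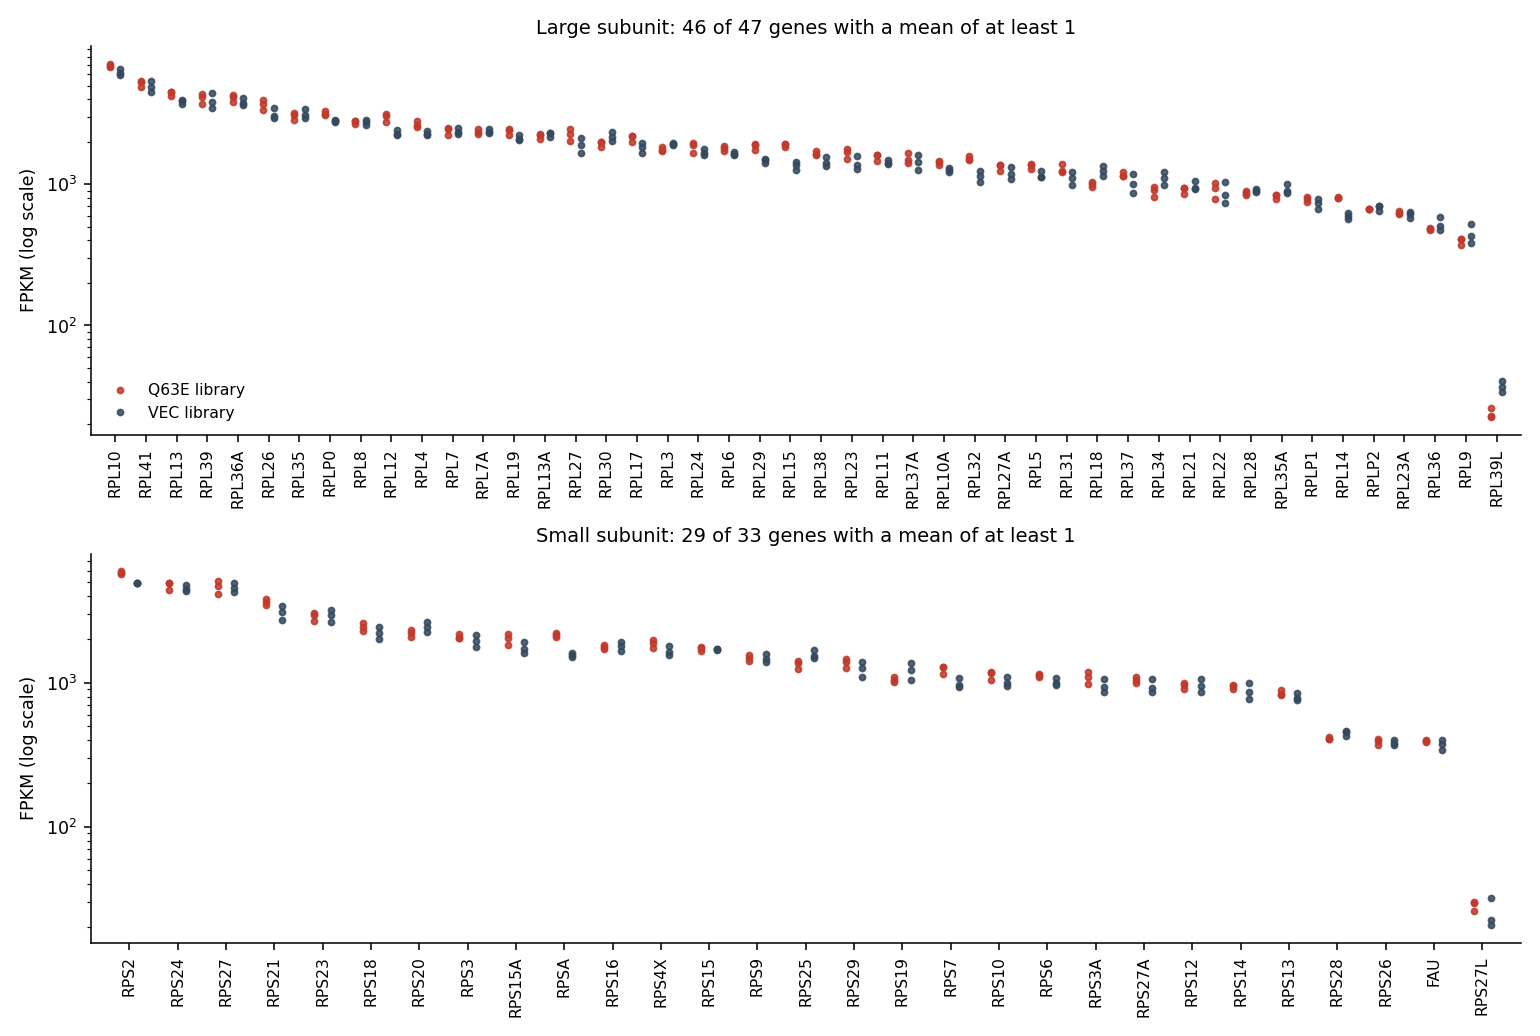
FPKM on a log scale of 75 of the 80 ribosomal protein genes with a mean of at least 1, in every library, with the Q63E libraries left of the VEC libraries for each gene. The 75 genes lie between 20.8 and 7145 FPKM, and most lie close together above 1000 FPKM, with RPL39L and RPS27L far below the rest.

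Most of the genes were expressed at high levels, with means of the tested genes between 26.7 and 6563 FPKM. All 80 tested genes were above 20 FPKM in every library, and 60 of them had a mean of at least 1000 FPKM over the 6 libraries. RPL10, which completes the peptidyl transferase region late in large subunit assembly, was the most abundant at 6714, 7145 and 6903 FPKM in Q63E, against 6572, 5901 and 6141 FPKM in VEC. Its groups did not overlap, but the difference did not pass the test (log2 fold change 0.16, adjusted p = 0.0652). RPS2, at the entry of the message channel, came next with 5681, 5786 and 5921 FPKM in Q63E and 4931, 4911 and 4945 FPKM in VEC. The VEC libraries were nearly equal and every Q63E library lay above them, and RPS2 rose by a log2 fold change of 0.23 (SE 0.033, adjusted p = 0.00361, limma). RPL41, the smallest ribosomal protein, had 4908, 5376 and 5286 FPKM in Q63E and 5378, 4528 and 4852 FPKM in VEC. Here the highest of all 6 values was that of VEC replicate 1, and the groups overlapped (log2 fold change 0.080, adjusted p = 0.455).

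The lowest tested genes were the copies RPL39L and RPS27L. RPS27L, a copy of RPS27 known as a target of p53, had 26.0, 29.8 and 29.7 FPKM in Q63E and 31.7, 20.8 and 22.4 FPKM in VEC, and the groups overlapped (adjusted p = 0.381). The readthrough rows RPL36A-HNRNPH2 and RPL17-C18orf32 held 16.5 and 7.19 FPKM on average in Q63E and 17.8 and 5.35 FPKM in VEC, little beside RPL36A and RPL17 themselves.

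On the large subunit, 10 of 47 tested genes were called higher and 3 lower, with a median log2 fold change of 0.099. These are 21.3% and 6.38%, beside 11.3% higher and 14.0% lower over all genes tested. RPL15, an RNA-binding protein of the subunit interior that is mutated in some families with Diamond-Blackfan anaemia, had 1836, 1939.95 and 1935 FPKM in Q63E, against 1439, 1264 and 1369 FPKM in VEC. Every Q63E library lay far above the highest VEC library, and RPL15 rose by a log2 fold change of 0.49 (SE 0.054, adjusted p = 0.00151, limma). RPL32 had 1477, 1597 and 1521 FPKM in Q63E and 1244, 1045 and 1140.2 FPKM in VEC. The groups did not overlap, although VEC replicate 1 stood above the other VEC libraries (log2 fold change 0.42, SE 0.068, adjusted p = 0.00591). RPL14 had 797, 815 and 794 FPKM in Q63E and 625, 571 and 600.4 FPKM in VEC. The Q63E libraries were nearly equal to each other and all above the VEC libraries (log2 fold change 0.42, SE 0.040, adjusted p = 0.000843). RPL29, on the outer surface of the subunit, had 1743, 1928 and 1893 FPKM in Q63E and 1516, 1405 and 1481 FPKM in VEC. It too rose without overlap, by a log2 fold change of 0.34 (SE 0.051, adjusted p = 0.00482).

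These 4 large subunit genes and RPSA of the small subunit share a place on the short arm of chromosome 3, on GRCh38. RPL32 (ENSG00000144713) lies on chromosome 3 from 12834485 to 12841588 on the minus strand, RPL15 (ENSG00000174748) on chromosome 3 from 23916545 to 23924374 on the plus strand, and RPSA (ENSG00000168028) on chromosome 3 from 39406689 to 39412542 on the plus strand. RPL14 (ENSG00000188846) lies on chromosome 3 from 40457292 to 40468587 on the plus strand and RPL29 (ENSG00000162244) on chromosome 3 from 51993522 to 51995942 on the minus strand. For each gene the median log2 fold change of the 50 nearest other tested genes on the same chromosome was taken as the level of its neighbourhood. Around these 5 genes that median lay between 0.30 (RPL32) and 0.34 (RPSA and RPL14), and between 44 and 47 of the 50 neighbours were above 0. When the median of the neighbours was subtracted from every gene in every library and the fit repeated, RPSA alone of the 5 was still called higher (0.15, adjusted p = 0.0329). RPL15 was at 0.16 (adjusted p = 0.119), RPL32 at 0.13 (0.232), RPL14 at 0.11 (0.113) and RPL29 at 0.011 (0.918). The other 3 members on chromosome 3 were RPL24 (0.12, not called), RPL35A (−0.16, not called) and RPL39L (−0.62, lower).

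RPL12, a stalk base protein that helps to bind the translation factors, rose against its surroundings. It lies on chromosome 9 from 127447674 to 127451405 on the minus strand (ENSG00000197958) and had 2742, 3120.3 and 3039.9 FPKM in Q63E, against 2405, 2238 and 2265 FPKM in VEC. All Q63E libraries were above all VEC libraries, and the log2 fold change was 0.36 (SE 0.058, adjusted p = 0.00595, limma). Its neighbours had a median of −0.12, and with that subtracted the log2 fold change was 0.51 (adjusted p = 0.00232). RPL12, RPSA and RPL39L were the 3 of the 18 called genes that were called under each of the 19 alternative settings. Of the P proteins that sit on the same stalk, RPLP0, the anchor of the stalk, had 3069, 3308 and 3136 FPKM in Q63E and 2871, 2754 and 2821 FPKM in VEC. RPLP0 rose without overlap (log2 fold change 0.17, SE 0.040, adjusted p = 0.024), and was not called with the neighbours subtracted (0.11, adjusted p = 0.155). RPLP1 had 754, 812 and 782 FPKM in Q63E and 787, 673 and 736 FPKM in VEC, and RPLP2 had 672, 669 and 666 FPKM in Q63E and 701, 649 and 701 FPKM in VEC. Both overlapped between groups, with log2 fold changes of 0.099 (adjusted p = 0.298) and −0.031 (adjusted p = 0.597).

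The proteins of the 5S particle, RPL5 and RPL11, bind 5S ribosomal RNA and, outside the ribosome, the p53 regulator MDM2. RPL5 had 1284, 1383 and 1373 FPKM in Q63E, against 1239, 1119 and 1118 FPKM in VEC, and rose without overlap (log2 fold change 0.22, SE 0.054, adjusted p = 0.0285, limma). RPL11 had 1467, 1622 and 1608 FPKM in Q63E and 1493, 1388 and 1405 FPKM in VEC. Its lowest Q63E library lay below VEC replicate 1, and it was not called (log2 fold change 0.13, adjusted p = 0.114). RPL4, which lines part of the exit tunnel of the new protein chain, had 2529.7, 2795 and 2647 FPKM in Q63E and 2372, 2219 and 2267 FPKM in VEC, and rose by a log2 fold change of 0.22 (adjusted p = 0.02). It was the 1 called gene of 8 in the tunnel region, of which 7 were above 0. The others were RPL17 (0.23), RPL26 (0.23), RPL31 (0.23), RPL19 (0.16), RPL39 (0.054), RPL23A (0.046) and RPL35 (−0.044). RPL39, a very short protein in the tunnel wall, had 3687, 4362 and 4133 FPKM in Q63E and 4452, 3494 and 3819.6 FPKM in VEC, with VEC replicate 1 the highest of all.

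RPL13 and RPL10A were the remaining large subunit genes called higher. RPL13 had 4215, 4522 and 4491 FPKM in Q63E, against 3924, 3679 and 3901 FPKM in VEC (log2 fold change 0.20, SE 0.045, adjusted p = 0.0201, limma). RPL10A, the protein of the mobile stalk beside the exit site of transfer RNA, had 1366, 1473 and 1433 FPKM in Q63E and 1302, 1231 and 1255 FPKM in VEC (log2 fold change 0.17, SE 0.041, adjusted p = 0.0243). Neither overlapped between groups. Both lost their call without Q63E replicate 2, Q63E replicate 3, VEC replicate 2 or VEC replicate 3, as did RPL4, RPL5 and RPLP0. Of the 18 called genes, 8 were called whichever library was left out: RPL12, RPL14, RPL15, RPL29, RPL32, RPS2, RPSA and RPL39L.

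A further 16 large subunit genes that were not called spread to both sides of 0. The highest log2 fold changes among the 16 were those of RPL27 (0.25), RPL23 (0.22), RPL38 (0.20), RPL37 (0.20), RPL27A (0.16) and RPL6 (0.12). Those of RPL36A (0.088), RPL37A (0.085), RPL7 (0.010) and RPL7A (−0.0041) were nearer to 0. RPL13A (−0.041), RPL28 (−0.063), RPL21 (−0.095), RPL36 (−0.11), RPL9 (−0.16) and RPL30 (−0.16) were below 0. The lowest adjusted p among these 16 genes was that of RPL38 (0.051, limma).

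On the small subunit, 4 of 33 tested genes were called higher and 1 lower, with a median log2 fold change of 0.092. These are 12.1% and 3.03%, and the share called higher is near the 11.3% of all genes tested. Over all genes 14.0% were called lower. RPSA, which sits near the exit of the message channel and is also known as the laminin receptor, had 2068, 2206 and 2155 FPKM in Q63E, against 1596, 1504 and 1546 FPKM in VEC. The gap between the groups was several times the spread within them, and RPSA rose by a log2 fold change of 0.47 (SE 0.040, adjusted p = 0.000578, limma). RPS7, a Diamond-Blackfan anaemia gene whose product also binds MDM2, had 1151, 1294 and 1287 FPKM in Q63E and 1073, 939 and 960.1 FPKM in VEC. The groups did not overlap (log2 fold change 0.33, SE 0.069, adjusted p = 0.016), but the call was lost without Q63E replicate 2, Q63E replicate 3 or VEC replicate 3. RPS6, the substrate of the S6 kinases, had 1101, 1142 and 1132 FPKM in Q63E and 1071, 968 and 1001 FPKM in VEC. It passed the test narrowly (log2 fold change 0.15, SE 0.045, adjusted p = 0.0493), and when 1 library was left out it stayed called only without VEC replicate 1. The only small subunit gene called lower was RPS28, a contact of the message at its exit, with 404, 417 and 406 FPKM in Q63E and 458, 428 and 457 FPKM in VEC. Its groups did not overlap (log2 fold change −0.13, SE 0.038, adjusted p = 0.0497), and when 1 library was left out it stayed called only without VEC replicate 2. The call of RPS28 was also lost with the libraries scaled to the same sum, by median ratio or by quantiles.

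Other small subunit genes with known roles were not called. RPS3, at the entry of the message channel, had 2032, 2173 and 2041 FPKM in Q63E and 2159, 1759 and 1958 FPKM in VEC (log2 fold change 0.092, adjusted p = 0.42). RPS14, a platform protein whose loss marks a form of myelodysplastic syndrome, had 911, 969 and 943 FPKM in Q63E and 993, 774 and 855 FPKM in VEC (0.11, adjusted p = 0.395). In both genes VEC replicate 1 or Q63E replicate 2 was the highest, and the groups overlapped. RPS26, which contacts the message upstream of the start codon, had 406, 371 and 391 FPKM in Q63E and 401, 382 and 369.9 FPKM in VEC (0.019, adjusted p = 0.804). RPS4X, the X-linked partner of the Y-linked copy, had 1755, 1982 and 1886 FPKM in Q63E and 1810.4, 1551 and 1627 FPKM in VEC (0.17, adjusted p = 0.123). RPS19, the gene most often mutated in Diamond-Blackfan anaemia, had 1014, 1099.9 and 1041 FPKM in Q63E and 1366, 1045 and 1217 FPKM in VEC (−0.19, adjusted p = 0.19). Its VEC libraries were spread widely and overlapped the Q63E libraries. Of 18 members linked to this anaemia, RPL15, RPL5 and RPS7 were called higher and RPL18 and RPS28 lower. FAU, made as a fusion with a ubiquitin-like protein, had 389.6, 393 and 402 FPKM in Q63E and 401, 339 and 374 FPKM in VEC (log2 fold change 0.091, adjusted p = 0.326, limma). RPS27A, made as a fusion with ubiquitin, had 1002, 1052 and 1091 FPKM in Q63E and 1054, 857 and 926 FPKM in VEC (0.15, adjusted p = 0.205). Both genes overlapped between the groups.

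Other small subunit genes were not called either. Among them RPS21 lay highest at 0.25 (adjusted p = 0.0884, limma) and RPS25 lowest at −0.22 (adjusted p = 0.056). Log2 fold changes above 0.1 were also those of RPS15A (0.21), RPS3A (0.20), RPS10 (0.16), RPS18 (0.14) and RPS29 (0.13). Those of RPS13 (0.092), RPS24 (0.076), RPS27 (0.025), RPS15 (0.019), RPS9 (0.0069), RPS12 (−0.0063), RPS23 (−0.011) and RPS16 (−0.019) were closer to 0. RPS20 (−0.15) was below them. RPS24 and RPS27 were the most abundant small subunit genes after RPS2, with 4753 ± 287 and 4658 ± 489 FPKM in Q63E and 4507 ± 224 and 4569 ± 312 FPKM in VEC (SD, n = 3 each).

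Among the large subunit genes that were lower in Q63E, RPL39L fell most. RPL39L (ENSG00000163923, chromosome 3 from 187120948 to 187180908 on the minus strand), a copy of RPL39 best known from testis, had 22.5, 26.2 and 22.8 FPKM in Q63E, against 40.5, 33.8 and 37.0 FPKM in VEC. All Q63E libraries were below all VEC libraries (log2 fold change −0.62, SE 0.087, adjusted p = 0.00376, limma). With its neighbours subtracted the log2 fold change was −0.44 (adjusted p = 0.0209). RPL34 (chromosome 4 from 108620566 to 108630412 on the plus strand) had 813, 952 and 904 FPKM in Q63E and 1231, 992 and 1114 FPKM in VEC. It fell without overlap (log2 fold change −0.32, SE 0.091, adjusted p = 0.0459), among neighbours with a median of −0.39 of which 5 of 50 were above 0, and with that median subtracted it was at 0.051 (adjusted p = 0.723). RPL18 (chromosome 19 from 48615328 to 48619536 on the minus strand) had 959, 1045 and 1001 FPKM in Q63E and 1349, 1145 and 1237 FPKM in VEC. It fell without overlap by 0.31 on the log2 scale (SE 0.066, adjusted p = 0.0171), and with the neighbours subtracted it was at −0.14 (adjusted p = 0.218). The call of RPL18 was lost without Q63E replicate 1, Q63E replicate 3 or VEC replicate 3, and that of RPL34 without any library but VEC replicate 2.

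RPL3, a protein near the site of peptide bond formation, was the member with the largest shift between the 2 fits. It had 1725, 1839 and 1743 FPKM in Q63E, against 1920.2, 1895 and 1952 FPKM in VEC, and its log2 fold change of −0.12 (SE 0.037, adjusted p = 0.0553, limma) just missed the threshold. All Q63E libraries were below all VEC libraries. RPL3 lies on chromosome 22 from 39312882 to 39320389 on the minus strand, where the 50 nearest genes had a median of −0.54 and 7 of them were above 0. Relative to those neighbours RPL3 was higher in Q63E, at 0.42 (adjusted p = 0.000652). The direction of RPL3 thus depends on whether the neighbours are subtracted.

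**Figure D2:**
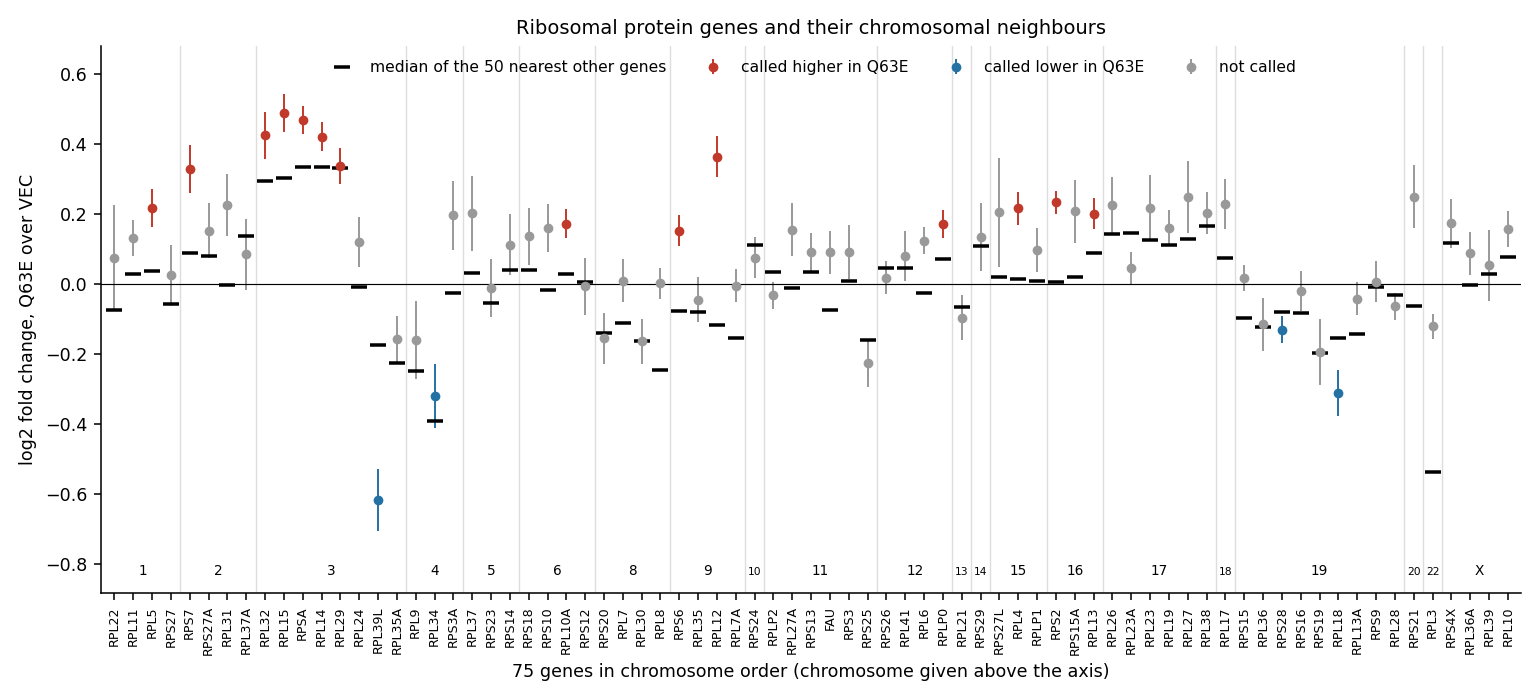
Log2 fold change of Q63E over VEC for 75 of the 80 tested ribosomal protein genes in chromosome order, with points for the estimate, vertical lines for 1 SE on either side, and short black bars for the median of the 50 nearest other tested genes. The 5 red points on the left of chromosome 3 lie between 0.34 and 0.49 over bars between 0.30 and 0.34, and on chromosome 19, 7 of the 9 points shown lie below 0.

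The chromosomal pattern was not limited to chromosome 3. Of the 80 genes, 41 had neighbours with a median above 0, and 39 of these 41 were themselves above 0, with 12 called higher, none called lower in limma (0 lower at an unadjusted p under 0.05) and a median log2 fold change of 0.17. The other 39 genes had neighbours below 0, and 17 of them were above 0, with 2 called higher (RPL12 and RPS6), 4 called lower and a median of −0.019. All genes tested, of which 11.3% were called higher and 14.0% lower, were not split in this way. Whether the split is particular to the members was therefore not tested. On chromosome 19, which holds 12 members, 10 were below 0 with a median of −0.063, beside −0.089 for 927 other genes there. On chromosome 17, all 6 members were above 0 with a median of 0.21, beside 0.10 for 848 other genes, and none of the 6 was called in limma (4 higher and 0 lower at an unadjusted p under 0.05). Without the 8 members of chromosome 3, 9 of 72 genes were called higher and 3 lower, and the 9 are 12.5% of the 72, near the 11.3% of all genes called higher.

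**Figure D3:**
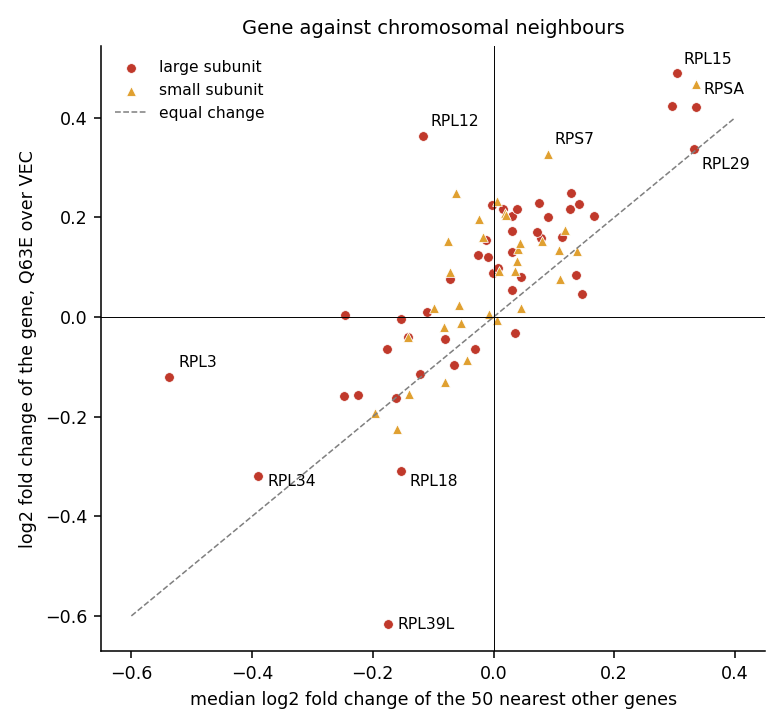
Log2 fold change of each tested ribosomal protein gene (vertical axis) against the median log2 fold change of its 50 nearest other tested genes (horizontal axis), with circles for the large subunit, triangles for the small subunit and a dashed line of equal change. Most genes follow the dashed line and lie slightly above it; RPL12 and RPL3 lie far above it and RPL39L far below it.

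Across the 80 genes the log2 fold change and the neighbour median had a Pearson r of 0.75 and a Spearman rho of 0.73, and without chromosome 3 they were 0.68 and 0.65 over 72 genes. These values describe genes measured in the same 6 libraries, and members close to each other share neighbours, so that they are not independent points. No such correlation was taken over all genes tested. Transcript length and GC content showed little relation to the log2 fold change over the same genes (r = 0.059 and −0.075). After the neighbour medians were subtracted, 65 of the 80 genes lay above 0, with a median of 0.10, beside 50.4% of all genes tested. This is not a count of independent genes, since the members moved together from library to library, as described below. In that fit 11 members were called higher and 1 lower (RPL39L), where 8.43% of all genes were called higher and 8.90% lower. The 11 were RPL12, RPL3, RPS6, RPS7, RPL8, RPS2, RPL4, RPL5, RPSA, RPL10A and RPL6. The calls of RPL13 (0.12, adjusted p = 0.283) and RPS28 (−0.039, adjusted p = 0.581) were lost there, while RPS6 was at 0.27 (adjusted p = 0.00556). RPL8, beside the peptidyl transferase centre, was at 0.0033 as measured and at 0.23 with the neighbours subtracted (adjusted p = 0.0207).

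Members moved together from library to library. For each library the median deviation of the 80 genes from the VEC mean was 0.043, 0.16 and 0.12 on the log2 scale in Q63E, against 0.11, −0.090 and −0.012 in VEC. The lowest Q63E library thus lay below the highest VEC library, while the median of the other 13266 genes stayed within 0.015 of 0 in every library. VEC replicate 1 was the highest of its group in 77 of the 80 genes and VEC replicate 2 the lowest in 75. Q63E replicate 1 was the lowest of its group in 74 and Q63E replicate 2 the highest in 65. Other short and abundant genes (479 with a transcript under 1000 bases and a mean above 100 FPKM) had −0.061, −0.034 and −0.0037 in Q63E and 0.031, −0.020 and −0.013 in VEC. Over the 80 genes, the range between the VEC libraries was larger for shorter transcripts (Pearson r = −0.32, Spearman rho = −0.40), a description of the same 3 libraries. The part of this shared movement in the calls was not tested beyond leaving out each library and scaling to the median ribosomal protein gene. The calls under that scaling are given below.

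**Figure D4:**
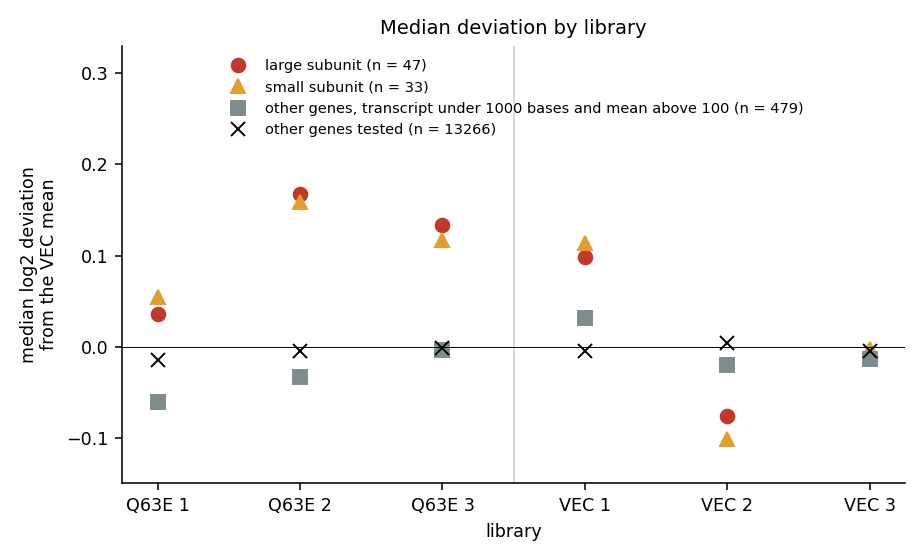
Median log2 deviation from the VEC mean in each library for the 47 large subunit genes, the 33 small subunit genes, 479 other short abundant genes and all 13266 other genes tested. Both subunits move together, highest in Q63E 2 and lowest in VEC 2, and VEC 1 lies above Q63E 1. All 13266 other genes stay within 0.015 of 0, and the 479 short abundant genes lie between −0.061 (Q63E 1) and 0.031 (VEC 1).

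The members held 19.6%, 21.2% and 20.7% of the summed FPKM in the Q63E libraries, against 19.5%, 17.6% and 18.6% in the VEC libraries. The groups did not overlap, by the narrow gap between Q63E replicate 1 and VEC replicate 1, and the means of 20.5% ± 0.793 and 18.6% ± 0.941 (SD, n = 3 each) differed with an exact two-sided permutation p of 0.1, the smallest that 3 against 3 libraries can give. The mitochondrially encoded rows held between 5.58% and 6.27% of the sum in Q63E and between 8.44% and 9.44% in VEC. With those rows left out of the sum, the shares of the members overlapped and differed by 1.34 percentage points (exact permutation p = 0.2). The large subunit held 12.6% ± 0.480 in Q63E and 11.4% ± 0.545 in VEC (exact permutation p = 0.1), and the small subunit 7.87% ± 0.314 in Q63E and 7.19% ± 0.396 in VEC (exact permutation p = 0.2; SD, n = 3 each). The log2 ratio of the large to the small subunit was 0.68 ± 0.0041 in Q63E and 0.66 ± 0.011 in VEC, a difference of 0.018 (exact permutation p = 0.1). The groups stood apart only by the gap between Q63E replicate 2 and VEC replicate 2, both at 0.676. That difference had an exact permutation p of 0.3 without the 5 highest members and 0.5 when the pseudogene rows were added.

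Relative to the median ribosomal protein gene, which removes what the members share in each library, 9 genes were called higher and 16 lower. Over all genes tested that scaling called 4.24% higher and 14.1% lower. The 5 genes on the short arm of chromosome 3 were among the 9, with RPL15 at 0.39 and RPSA at 0.37, and so were RPL12 (0.27), RPS7 (0.23), RPS21 (0.15) and RPL17 (0.13). RPL4, RPL5, RPL10A, RPL13, RPLP0, RPS2 and RPS6, called higher as measured, were not called under this scaling (adjusted p between 0.0800 and 0.406, limma). Among the 16 were 6 of the 12 genes of chromosome 19. The largest falls were those of RPL39L (−0.71), RPL34 (−0.42), RPL18 (−0.41) and RPS25 (−0.32, adjusted p = 0.00165). RPS25, needed for some internal ribosome entry sites, had 1246, 1424 and 1369 FPKM in Q63E and 1694, 1483 and 1542 FPKM in VEC, without overlap, and was not called as measured (log2 fold change −0.22, adjusted p = 0.056).

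Some ribosomal proteins have a main gene and a further gene named as its copy. Whether each copy can take the place of its main gene in the ribosome was not tested. RPL22L1, a copy of RPL22 whose own symbol falls outside the rule for members, had 30.4, 42.8 and 40.0 FPKM in Q63E, against 62.1, 48.6 and 61.5 FPKM in VEC. It fell without overlap (log2 fold change −0.60, SE 0.15, adjusted p = 0.0294, limma), although the call was lost without Q63E replicate 1, Q63E replicate 3, VEC replicate 1 or VEC replicate 3. RPL22 itself, whose protein is known in mouse to hold down its copy, had 780.5, 1019.9 and 947 FPKM in Q63E and 1042, 732 and 844 FPKM in VEC, with wide overlap (log2 fold change 0.076, adjusted p = 0.744). The copy made up 3.75%, 4.02% and 4.05% of the pair's FPKM in Q63E and 5.63%, 6.23% and 6.79% in VEC (exact permutation p = 0.1, adjusted over 6 pairs 0.2). RPL39L made up 0.584% ± 0.0302 of its pair in Q63E and 0.939% ± 0.0324 in VEC, and RPL26L1 2.50% ± 0.163 of its pair in Q63E and 3.15% ± 0.303 in VEC (SD, n = 3 each; exact permutation p = 0.1 for each, adjusted 0.2). Each of these 3 copies took a smaller share in all Q63E libraries than in any VEC library. The shares of RPS27L (0.609% in Q63E and 0.539% in VEC), RPL36AL (4.54% in Q63E and 4.73% in VEC) and RPL7L1 (1.76% in Q63E and 1.83% in VEC) overlapped (exact permutation p = 0.4, 0.7 and 0.6). RPL3L and RPL10L were listed at 0 in at least 1 library and gave no ratio.

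**Figure D5:**
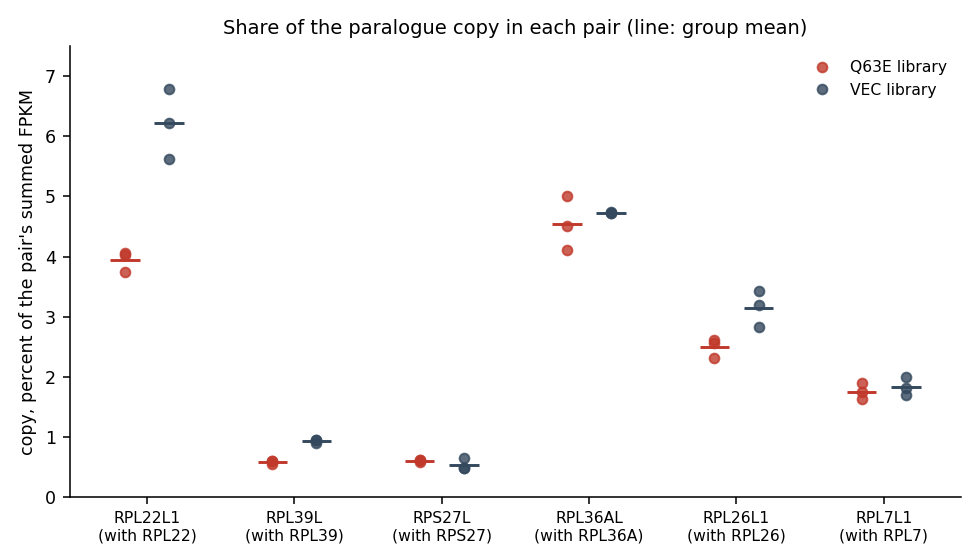
Share of the copy in the summed FPKM of a copy and its main gene, in percent, for 6 pairs, with points for libraries and lines for group means, Q63E left of VEC. The shares of RPL22L1, RPL39L and RPL26L1 are lower in all Q63E libraries than in any VEC library, and those of the other pairs overlap.

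Genes with a pyrimidine start were found both among the genes that rose and among those that fell. Of the 47 tested genes with a pyrimidine start at a matched site, 7 were called higher and 2 lower, with a median log2 fold change of 0.091. Of the 17 tested genes without one at a matched site, 5 were called higher (RPL15, RPL32, RPS7, RPL4 and RPL10A) and 1 lower (RPS28), with a median of 0.17. Over all genes tested 11.3% were called higher and 14.0% lower. Both classes hold called genes of the short arm of chromosome 3, RPL15 and RPL32 without a pyrimidine start and RPSA, RPL14 and RPL29 with one. The difference between the classes was not tested. The rule counted only a run that begins at the annotated first base. In RPL10A, RPL4 and a site of RPL15 a run of C and T lies further in, and in RPS7 a run crosses the start. Whether such genes lack a pyrimidine start depends on the precision of the annotated sites, which was not tested. Other motifs were searched over 250 bases before to 50 bases after each start, on both strands. CCGGAAG, a motif of ETS factors, was in 33.3% of the members' windows and 10.3% of all windows. AAGATGG, the core of a YY1 motif, was in 11.1% against 5.84%, GGGCGG, the GC box, in 55.6% against 45.0%, CACGTG, the E-box bound by MYC, in 4.94% against 7.26%, and TATAAA in 7.41% against 11.5%. A match is a description of the sequence only.

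Genes that act with the ribosomal proteins moved in both directions. Of 11 elongation factor genes 2 were called higher and 1 lower, with a median log2 fold change of 0.085. EEF1A1, the main carrier of transfer RNA to the ribosome and itself a TOP message, rose to 6353 ± 163 FPKM in Q63E, against 5684 ± 137 FPKM in VEC (log2 fold change 0.16, adjusted p = 0.0243, limma), and EEF1G rose by 0.26 (adjusted p = 0.00389). EEF1A2, the form known from muscle and neurons, fell to 51.2 ± 2.77 FPKM in Q63E, against 104 ± 1.20 FPKM in VEC (SD, n = 3 each; log2 fold change −1.01, adjusted p = 7.52e-05, limma). Of 37 initiation factor genes 5 were higher and 5 lower, with a median of 0.026. EIF4E, the cap-binding protein, fell to 51.9, 47.4 and 57.4 FPKM in Q63E, against 79.4, 87.7 and 87.0 FPKM in VEC (−0.69, adjusted p = 0.00156), and its scaffold partner EIF4G1 was at −0.40 (adjusted p = 0.00223) and EIF2B5 at −0.39 (adjusted p = 0.012). EIF3F rose by 0.41 (adjusted p = 0.0141). After the neighbours were subtracted, 4 initiation factor genes were higher and 4 lower. EIF4E was then at −0.32 (adjusted p = 0.0324) and EIF4G1 at −0.22 (adjusted p = 0.0477), and the call of EIF2B5 was lost (−0.22, adjusted p = 0.0961).

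Of 28 other TOP messages 4 were called higher and 5 lower, with a median of 0.0038. EEF1A1, EEF1G and EIF3F, named above, are also on this list and are among its genes called higher, so the lists overlap. The largest falls were those of 3 noncoding RNAs, SNHG8 (−0.73, adjusted p = 0.00137), EPB41L4A-AS1 (−0.64, adjusted p = 0.00506) and SNHG6 (−0.56, adjusted p = 0.00473, limma). Relative to their neighbours 7 of the 28 were higher and 3 lower, and SNHG8 was at −0.36 (adjusted p = 0.0392). The SNHG genes host small nucleolar RNAs in their introns, and the call of EIF3F was lost without Q63E replicate 3. RACK1, a ribosomal protein outside the symbol rule, was not called (0.14, adjusted p = 0.0576). Of 24 genes of mTORC1 and the regulators of TOP messages, 2 were higher and 6 lower, with a median of −0.043. They included DDIT4, an inhibitor of mTORC1 (844 ± 98.0 FPKM in Q63E and 584 ± 61.1 FPKM in VEC; 0.53, adjusted p = 0.0136), the cap-binding inhibitor EIF4EBP1 (−0.52, adjusted p = 0.000538), PDCD4, which blocks a helicase of initiation (−0.58, adjusted p = 0.00163), and the arginine sensor CASTOR1 (−0.48, adjusted p = 0.0464). Relative to the neighbours EIF4EBP1 was at −0.16 (adjusted p = 0.0404), and the call of CASTOR1 was lost (−0.41, adjusted p = 0.121).

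Of 77 tested ribosome assembly factor genes 8 were called higher and 13 lower, with a median log2 fold change of 0.0032. BOP1, needed for the large subunit, fell to 91.4 ± 2.21 FPKM in Q63E, against 172 ± 3.86 FPKM in VEC (SD, n = 3 each; log2 fold change −0.90, adjusted p = 4.47e-05, limma). NOL6 (−0.64), SNU13 (−0.52) and NOP14 (−0.48), which act on the small subunit or on small nucleolar RNAs, fell too (adjusted p = 0.000614, 0.00126 and 0.00168). In the fit with the neighbours subtracted, 2 assembly factor genes were higher and 5 lower. NOL6 was then at −0.27 (adjusted p = 0.0167), and the calls of SNU13 (−0.075, adjusted p = 0.336) and NOP14 (−0.0091, adjusted p = 0.932) were lost. None of 15 genes of RNA polymerase I and its factors was called in limma (1 higher and 0 lower at an unadjusted p under 0.05), and the most abundant, TAF1D and POLR1D, were at −0.0052 and 0.071. Of 10 genes listed for the 5S particle, MDM2 and p53, 2 were higher and 2 lower. The p53 target CDKN1A fell to 13.0 ± 1.66 FPKM in Q63E, against 20.8 ± 2.95 FPKM in VEC (−0.63, adjusted p = 0.0134), RRS1, which loads the 5S particle, was at −0.23 (adjusted p = 0.0362), HEXIM1 at 0.40 (adjusted p = 0.00768) and NOP53 at 0.15 (adjusted p = 0.0343). Relative to its neighbours NOP53 was at 0.35 (adjusted p = 0.00318), and the calls of RRS1 (−0.13, adjusted p = 0.234) and HEXIM1 (0.25, adjusted p = 0.0633) were lost.

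Of 13 tested genes for transcription factors linked to ribosomal protein promoters, 2 were called higher and 3 lower. MYC, a driver of ribosome production, had 59.8, 62.5 and 63.4 FPKM in Q63E, against 39.6, 47.2 and 44.5 FPKM in VEC, and rose without overlap (log2 fold change 0.49, SE 0.069, adjusted p = 0.00358, limma). The MYC antagonist MXD4 (−0.58, adjusted p = 0.00782), the ETS factor GABPA (−0.48, adjusted p = 0.00412) and E2F1 (−0.39, adjusted p = 0.00101) fell. With the neighbours subtracted the calls of MXD4 (−0.12, adjusted p = 0.483) and GABPA (−0.12, adjusted p = 0.319) were lost, and those of MYC (0.62, adjusted p = 0.0021) and E2F1 (−0.46, adjusted p = 0.00129) were not. Of 11 genes for mRNA decay and stress granule proteins, TIA1 rose (0.39, adjusted p = 0.0344) and G3BP2 (−0.48), CNOT1 (−0.30) and DDX6 (−0.16) fell (adjusted p = 0.000619, 0.0346 and 0.0491). With the neighbours subtracted CNOT1 alone of these 4 was still called (−0.36, adjusted p = 0.0418), and TIA1 was at 0.27 (0.147), G3BP2 at −0.049 (0.555) and DDX6 at −0.027 (0.774). Over these lists the share called ran from none to 40.0%, beside 25.3% of all genes tested, and the lists were described by these counts only. The calls of DDX6 and NOP53 were lost whichever library was left out. With 1 library left out, CASTOR1 stayed called only without VEC replicate 2, CNOT1 only without Q63E replicate 2, RRS1 only without VEC replicate 3, TIA1 only without VEC replicate 2 or VEC replicate 3, and EEF1A1 only without Q63E replicate 1 or VEC replicate 1. Scaled to the median ribosomal protein gene, EEF1A1, EEF1G, EIF3F, RRS1, HEXIM1, NOP53, TIA1 and DDX6 were not called, with adjusted p between 0.0617 and 0.684. The calls of EEF1A1, NOP53, RRS1, TIA1, CNOT1 and DDX6 were also lost in limma without trend and with no filter on low values.

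Reads of ribosomal protein messages can also fall on processed pseudogenes, which are near-identical copies. The tables held 1606 such rows, of which 52 had a mean of at least 1, with 3 called higher and 1 lower. Together they held 0.711% ± 0.0278 of the summed FPKM in Q63E and 0.761% ± 0.179 in VEC (SD, n = 3 each), a small amount beside the members' 20.5% and 18.6%. How the authors' counting divided reads between a gene and its pseudogenes is not given in the sources used here, so that the level of each single member is uncertain to that extent.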

How the data were processed

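Each of the 6 libraries had 1 deposited table of 58882 rows, and 58233 rows carried an Ensembl gene identifier. The authors' values are read here as FPKM, which no header or label names. Per the submitters' processing notes the tools were Bowtie2 and HISAT2 2.1.0 and the build was GRCh38.p10. For the counting program, its annotation, strand setting and filters, the sources used here give nothing. Read counts were not recovered, and a value of 0 can be a failed estimate.

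Groups came from the sample titles. Coordinates and gene types came from GENCODE release 29 and start sites from RefSeq (GRCh38.p14). Log2(FPKM + 1) was tested for the 13346 genes that averaged at least 1 FPKM, two-sided, with limma 3.58.1 (lmFit, then eBayes with a trend; R 4.3.3) and with Benjamini-Hochberg adjustment over all genes and a threshold of 0.05. Fold changes are on this log2 scale and understate the change of low genes. Shares and ratios were tested by exact permutation. The fit was tested on simulated data and repeated under 19 alternative settings. Each gene varied on its own in the simulated data, so they do not cover the shared movement of the members between libraries. No protein sequences were used. A few members enter every count and median but are not reported here by name.

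The members, the lists and the rules were chosen with earlier results of these data known. Values by library were given for the 12 called members with the largest change, each called member that fell, members with set roles, copies, and the 3 highest and 3 lowest members. From each list up to 4 called genes were named, or the 2 most abundant. Others named were chosen after their values were seen, among them RPS25, RPL8, RPL13, RPL10A and the 2 extra start windows of RPS7 and RPS27.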

Additional observations from a re-analysis of the deposited data

How the results depend on the processing

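The members' counts depend on the processing more than their median does. Ribosomal protein genes called higher were 14 as reported and 7 with no filter on low values, 26 with the libraries scaled to the same sum, 9 scaled to the median ribosomal protein gene, 8 in limma without trend and 7 to 25 with 1 library left out. Ribosomal protein genes called lower were 4 as reported and 1 with no filter on low values, 7 scaled to the same sum without mitochondrial rows, 10 after quantile normalization, 16 scaled to the median ribosomal protein gene, 1 with the neighbours subtracted, 2 without trend and 1 to 5 with 1 library left out. The cause of these moves was not tested. The median log2 fold change of 0.095 became −0.0021 when scaled to the median ribosomal protein gene, by construction, and it was 0.043 without VEC replicate 2 and 0.16 without VEC replicate 1. With the neighbours subtracted, the log2 fold change of RPL3 was 0.42 and that of RPL34 0.051, above 0 in place of below. The shares of the summed FPKM and the ratio of the subunits kept their direction under the alternatives run. Deviations from the group means of same-numbered libraries had correlations of −0.042, −0.0087 and −0.025 over all genes. Over the members these were −0.47, −0.41 and −0.39. With 3 libraries per group, these values cannot decide whether the replicate numbers in the titles pair the libraries. With the replicate number as a block, 2208 of 13346 genes were called, and 6 members were higher and 1 lower. Depth is unknown, so counting error could not be separated from the spread between libraries.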
